A study of Saccharomyces cerevisiae with 3 samples.

Results

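The genes described here encode the machinery of RNA polymerases I and III (Pol I and Pol III): the subunits of both enzymes and the factors that bring them to their promoters. The genes were chosen by the known roles of their proteins, a rule that uses no measured value. It holds 36 genes, which are 7 subunits found only in Pol I, 7 initiation factors of Pol I, 10 subunits found only in Pol III, 3 subunits that both enzymes contain, 6 subunits of TFIIIC, 2 subunits of TFIIIB and the Pol III repressor *MAF1*. All 36 were measured, among 5449 *Saccharomyces cerevisiae* genes, each by 1 probe set that the array design does not share with another gene, and all 36 lay above background on all 3 arrays. A strain lacking *SPT3* (*spt3Δ*) and a strain lacking *SPT8* (*spt8Δ*), each made by replacing the gene with the KanMX cassette, were compared with their wild type parent strain (WT). By their labels the strains are of BY4742 background. They were cultured in 5 ml of YPD at 30 °C to an optical density of 0.7. From each, 200 ng of total RNA was copied into cDNA, and amplified RNA made from it was hybridised to an Affymetrix Yeast Genome 2.0 array. One array was run for each strain, so no difference below has a replicate check or a test, strain and array cannot be told apart, and how many clones stand behind a deletion strain was not stated in the sources used here.

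Pol I transcribes the ribosomal DNA repeats into the precursor of the large ribosomal RNAs, and Pol III makes the transfer RNAs, the smallest ribosomal RNA and other short RNAs. At the ribosomal DNA the upstream activating factor (UAF), the core factor and Rrn3 recruit Pol I, whereas TFIIIC recognises promoter elements inside transfer RNA genes and places TFIIIB, which recruits Pol III. The TATA-binding protein (TBP), encoded by *SPT15*, takes part in initiation by both enzymes and by Pol II, and it is the protein that Spt3 and Spt8 contact within the SAGA coactivator complex. The genes of the Pol I and Pol III machinery are themselves transcribed by Pol II.

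The deleted genes were checked first. *SPT3* had a signal of 0.416 in *spt3Δ*, 332 in *spt8Δ* and 288 in WT, which lay below background in *spt3Δ* and was at least 43.2-fold lower there than in WT. *SPT8* had 514 in *spt3Δ*, 5.20 in *spt8Δ* and 346 in WT, below background in *spt8Δ* and at least 40.2-fold lower there than in WT. Each bound sets the WT signal against the background of the deletion array. *LYS2* and *URA3*, which BY4742 lacks, lay below background on all 3 arrays, at 2.80 and 0.576 in *spt3Δ*, 7.20 and 0.328 in *spt8Δ*, and 4.17 and 1.13 in WT. *LEU2* and *HIS3*, which are also mutated in BY4742, lay above background, *LEU2* with 18.2 in *spt3Δ*, 34.0 in *spt8Δ* and 9.50 in WT and *HIS3*, whose deletion in this background is partial, with 2638 in *spt3Δ*, 1774 in *spt8Δ* and 1589 in WT. *MET17*, intact in BY4742, had 7739 in *spt3Δ*, 8377 in *spt8Δ* and 6686 in WT. The pheromone gene of MATα cells, *MF(ALPHA)1*, had 6835 in *spt3Δ*, 7083 in *spt8Δ* and 9816 in WT, and the 6 genes specific to MATa cells had at most 50.7 on any array, whereas the strain list of the study gives a MATa genotype. The trimmed mean of each array was 500.3 in *spt3Δ*, 500.3 in *spt8Δ* and 500.4 in WT, as the deposited signals had been scaled to a common value. The scaling makes each signal relative to the rest of that array's RNA, so that a change in these transcripts and an opposite change in the remaining RNA, or in RNA per cell, cannot be told apart.

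No gene of the Pol I and Pol III machinery passed the limits for a called gene in either deletion strain, and most of them had a slightly higher signal than in WT. Genes were called by limits set here at 2 SD either side of the genome-wide mean of the log2 ratio, which were -1.26 and 1.47 in *spt3Δ* over WT and -0.91 and 1.01 in *spt8Δ* over WT. In *spt3Δ*, 0 of the 36 genes were called lower and 0 higher, where 2.73% and 0.973% of all genes were called. In *spt8Δ*, 0 of 36 were called lower and 0 higher, against 2.13% and 1.63% of all genes. By a 2-fold limit the counts were also 0 lower and 0 higher in each strain, beside 4.20% and 4.15% of all genes in *spt3Δ*, and 1.85% and 1.69% in *spt8Δ*. The signal was above WT in 28 of 36 genes in *spt3Δ*, where 61.2% of all genes were, and in 28 of 36 in *spt8Δ*, where 58.9% of all genes were. The median log2 ratio of the 36 genes was 0.35 (1.28-fold) in *spt3Δ* over WT, beside 0.15 over all genes, and 0.20 (1.15-fold) in *spt8Δ* over WT, beside 0.067 over all genes. Both ratios use the same WT array, so the 2 medians are not independent of each other.

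The 36 ratios spread less than those of all genes. They ran between -0.27 and 0.98 in *spt3Δ* over WT and between -0.48 and 0.56 in *spt8Δ* over WT, with an SD over genes of 0.31 in *spt3Δ*, beside 0.68 over all genes, and 0.21 in *spt8Δ*, beside 0.48. The SD over all genes takes in the deleted genes and genes near or below background, as 5268 of 5449 lay above background on all arrays. An SD without those genes was not computed. A log2 difference of 0.32 (a signal ratio of 5 to 4) was used to describe them more finely. By it, 22 of 36 were higher and 0 lower in *spt3Δ* than in WT, beside 37.6% and 18.5% of all genes, and 6 were higher and 1 lower in *spt8Δ* than in WT, beside 19.0% and 10.8% of all genes. The count of 22 is a share of 61.1% and the count of 6 a share of 16.7%, so that in *spt8Δ* the share higher by this limit was near that of the genome. Relative to the median of all genes, 14 were higher and 1 (*RPA135*) lower by more than 0.32 in *spt3Δ*, beside 26.9% and 27.5% of all genes, and 2 were higher and 1 lower in *spt8Δ*, beside 13.6% and 14.4% of all genes. *RPA14*, *RPC17* and *RPC11* lay just past this limit in *spt3Δ*, each at 0.32 to 2 decimals, and *RPA49* lay just under it at 0.29.

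**Figure D1:**
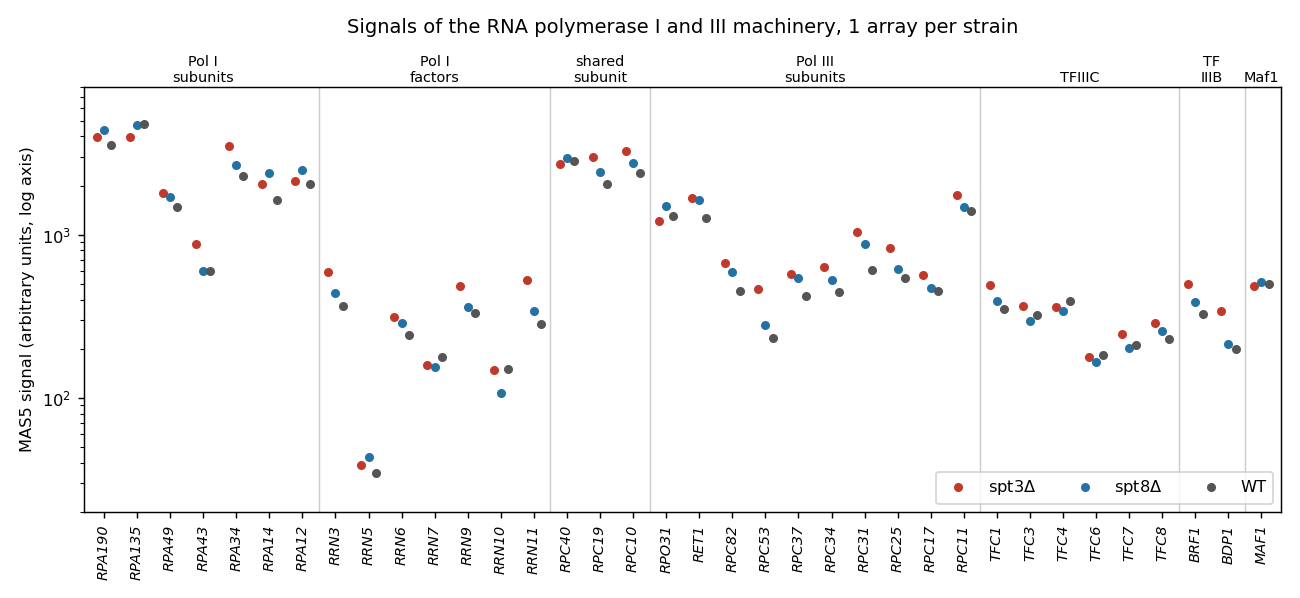
Signal of each of the 36 genes on each array (log axis, scaled MAS5 signal), with a point for *spt3Δ*, *spt8Δ* and WT, 1 array per strain, and the genes grouped by role. The points of a gene lie close together on this axis, and none of the genes approaches background, the lowest being *RRN5* with 38.6 in *spt3Δ*, 43.4 in *spt8Δ* and 34.4 in WT.

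**Figure D2:**
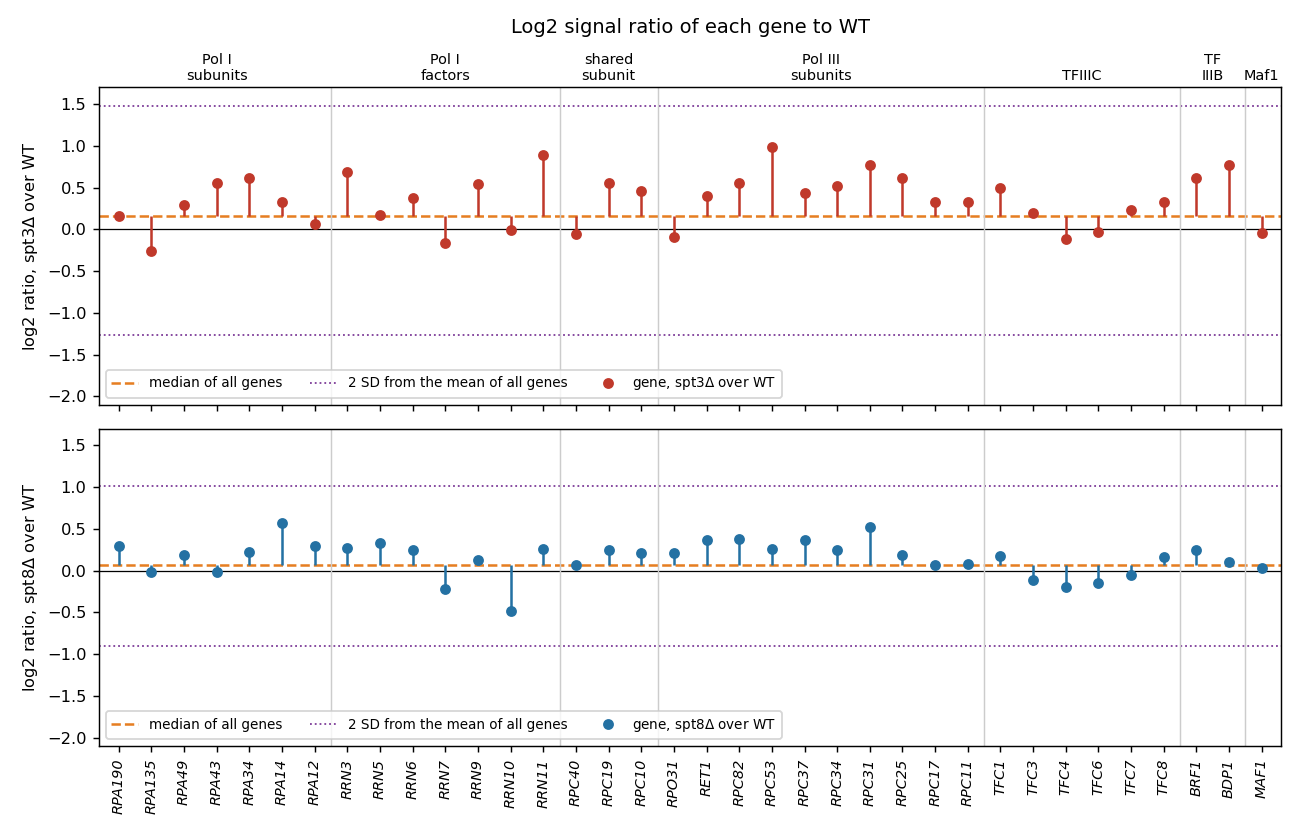
Log2 ratio over WT of each of the 36 genes in *spt3Δ* (upper panel) and *spt8Δ* (lower panel), with the median of all genes and the limits of 2 SD drawn as lines. No gene reaches a limit, the nearest being *RPC53* at 0.98 in *spt3Δ* and *RRN10* at -0.48 in *spt8Δ*.

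How well a single array places a ratio of this size could be judged only from genes that the array probes several times. In the 47 genes with several probe sets, the log2 ratios of the probe sets of a gene spanned a median of 0.21 in *spt3Δ* over WT and 0.20 in *spt8Δ* over WT. This spread is within an array and leaves out the spread between cultures. Relative to the median of all genes, 18 of the 36 lay above by more than it, 4 below and 14 within it in *spt3Δ*, where 34.5% of all genes lay above and 34.4% below. In *spt8Δ* the counts were 9 above, 4 below and 23 within, where 24.0% of all genes lay above and 24.9% below.

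The median of the subunits found only in Pol I was 0.29 in *spt3Δ* and 0.22 in *spt8Δ* over WT on the log2 scale, and the mutants differed in which subunits stood highest. *RPA34*, which with *RPA49* encodes a heterodimer that aids initiation and elongation, had a signal of 3489 in *spt3Δ*, 2662 in *spt8Δ* and 2278 in WT, a log2 ratio of 0.62 in *spt3Δ* and 0.22 in *spt8Δ*. Its partner *RPA49* had 1813 in *spt3Δ*, 1696 in *spt8Δ* and 1486 in WT, with ratios of 0.29 in *spt3Δ* and 0.19 in *spt8Δ*. Both genes of the heterodimer were highest in *spt3Δ* and lowest in WT with the signals as deposited. For *RPA49* the order of the mutants changed with the scaling, its ratio of *spt3Δ* over *spt8Δ* being 0.096 as deposited and -0.043 at its lowest. *RPA43*, whose product forms the stalk that binds Rrn3, had 879 in *spt3Δ*, 595 in *spt8Δ* and 600.2 in WT, with a log2 ratio of 0.55 in *spt3Δ* and of -0.013 in *spt8Δ*, which puts *spt8Δ* close to WT. *RPA14*, the other stalk subunit, had 2031 in *spt3Δ*, 2398 in *spt8Δ* and 1621 in WT, with 0.32 in *spt3Δ* and 0.56 in *spt8Δ*. The stalk genes thus differed in the order of the mutants, *RPA43* with its highest signal in *spt3Δ* and *RPA14* with its highest signal in *spt8Δ*. At the 94.3 percentile of all genes, *RPA14* had the highest ratio of the 36 in *spt8Δ* over WT.

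The catalytic subunits of Pol I differed from each other. *RPA190*, the largest subunit, which carries the active site, had a signal of 3968 in *spt3Δ*, 4351 in *spt8Δ* and 3559 in WT, with log2 ratios of 0.16 in *spt3Δ* and 0.29 in *spt8Δ*. *RPA135*, the second-largest subunit, had 3989 in *spt3Δ*, 4718 in *spt8Δ* and 4794 in WT. Its ratio of -0.27 in *spt3Δ* was the lowest of the 36 genes, while in *spt8Δ* it was -0.023, close to WT. *RPA12*, whose product takes part in RNA cleavage, had 2144 in *spt3Δ*, 2502 in *spt8Δ* and 2045 in WT, or 0.069 in *spt3Δ* and 0.29 in *spt8Δ*. *RPA190* and *RPA12* thus had their highest signal in *spt8Δ*, and *RPA135* had its highest in WT. The position of *RPA190* and *RPA12* above WT in *spt3Δ* changed with the scaling of the arrays, their lowest values under the alternatives being -0.080 and -0.17, as did that of *RPA135* in *spt8Δ*, whose highest value was 0.050.

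Of the initiation factors of Pol I, Rrn3 and a core factor subunit had the highest ratios in *spt3Δ*, and a UAF subunit the lowest in *spt8Δ*. *RRN3*, whose product makes Pol I competent to initiate, had a signal of 587 in *spt3Δ*, 441 in *spt8Δ* and 364 in WT, with log2 ratios of 0.69 in *spt3Δ* and 0.27 in *spt8Δ*. *RRN11*, a core factor subunit, had 525 in *spt3Δ*, 338 in *spt8Δ* and 282 in WT, which is 1.86-fold over WT in *spt3Δ* (log2 0.89, the 93.7 percentile of all genes) and 1.20-fold in *spt8Δ* (log2 0.26). Both had a signal in *spt3Δ* clear of the other arrays and a smaller step between *spt8Δ* and WT. The remaining core factor genes had lower ratios in *spt3Δ* than *RRN11*. *RRN6* had 315 in *spt3Δ*, 286 in *spt8Δ* and 242 in WT, with ratios of 0.38 in *spt3Δ* and 0.24 in *spt8Δ*, and *RRN7*, which encodes a relative of the Pol II factor TFIIB, had 159 in *spt3Δ*, 154 in *spt8Δ* and 179 in WT, with ratios of -0.17 in *spt3Δ* and -0.22 in *spt8Δ*. *RRN7* was therefore below WT in both mutants while its complex partners were above.

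The UAF genes were likewise split. *RRN9* had a signal of 484 in *spt3Δ*, 363 in *spt8Δ* and 332 in WT, with log2 ratios of 0.54 in *spt3Δ* and 0.13 in *spt8Δ*. *RRN10* had 149 in *spt3Δ*, 107 in *spt8Δ* and 149.7 in WT, a ratio of -0.0089 in *spt3Δ* and of -0.48 in *spt8Δ*. That value in *spt8Δ*, at the 6.20 percentile of all genes, made *RRN10* the only one of the 36 lower than WT by more than 0.32 in either mutant with the signals as deposited. With each array centred on its median, *RPA135*, *RPO31*, *RRN7* and *TFC4* also passed this limit in *spt3Δ*, and *RRN7* and *TFC4* did under quantile scaling. Under intensity-dependent scaling *MAF1*, *RRN7*, *TFC4* and *TFC6* passed it in *spt3Δ* and *RRN7* in *spt8Δ*. *RRN5*, at 0.17 in *spt3Δ* and 0.34 in *spt8Δ*, had the signals nearest background, and its ratio in *spt3Δ* took either sign as the scaling changed (-0.069 to 0.39). *UAF30*, a further UAF subunit outside the list, had 212 in *spt3Δ*, 156 in *spt8Δ* and 140.4 in WT, with ratios of 0.59 in *spt3Δ* and 0.15 in *spt8Δ*. Over *RRN5*, *RRN9* and *RRN10* the median was 0.17 in *spt3Δ* and 0.13 in *spt8Δ*, and over the core factor genes 0.38 in *spt3Δ* and 0.24 in *spt8Δ*.

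The subunits that Pol I shares with Pol III were measured by 3 genes, of which *RPC40* stood apart. *RPC19*, which encodes a partner of Rpc40 in the assembly platform of both enzymes, had a signal of 3000.2 in *spt3Δ*, 2427 in *spt8Δ* and 2044 in WT, with log2 ratios of 0.55 in *spt3Δ* and 0.25 in *spt8Δ*. *RPC10*, whose product is also in Pol II, had 3261 in *spt3Δ*, 2761 in *spt8Δ* and 2383 in WT, with ratios of 0.45 in *spt3Δ* and 0.21 in *spt8Δ*. *RPC40* itself had 2702 in *spt3Δ*, 2937 in *spt8Δ* and 2812 in WT, with ratios of -0.057 in *spt3Δ* and 0.063 in *spt8Δ*, which leaves both mutants close to WT, and its sign in *spt8Δ* changed with the scaling (lowest value -0.035). The genes of these partner proteins thus differed, the signal of *RPC19* being 1.47-fold that of WT in *spt3Δ* and that of *RPC40* 0.96-fold.

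The subunits found only in Pol III lay mostly above WT. In *spt3Δ* over WT their log2 ratios had a median of 0.48, and in *spt8Δ* over WT one of 0.25. In *spt3Δ*, 9 of the 10 had a higher signal than in WT, beside 61.2% of all genes, and 9 were past 0.32, beside 37.6%. With each array centred on its median, *RET1* (0.16), *RPC37* (0.20), *RPC34* (0.28), *RPC17* (0.088) and *RPC11* (0.086) no longer passed that limit. In *spt8Δ*, 10 of the 10 were above WT, beside 58.9% of all genes, and 4 were past 0.32, beside 19.0%. However, *RPC17* and *RPC11*, at 0.071 and 0.078 in *spt8Δ*, lay below WT under another scaling. Relative to genes of like signal, 3 of the 10 were more than 0.32 above in *spt3Δ*, beside 22.8% of all genes. In *spt8Δ* 1 of the 10 was, beside 12.6%, so these upper shares were near those of the genome. More than 0.32 below them were 0 of the 10 in each mutant, beside 24.4% of all genes in *spt3Δ* and 13.7% in *spt8Δ*. Of the 10, 9 lay above genes of like signal in each mutant, beside 49.4% and 49.7% of all genes. *RPC53* and *RPC37* encode a heterodimer used in initiation and termination. *RPC53* had a signal of 462 in *spt3Δ*, 279 in *spt8Δ* and 233 in WT, which is 1.98-fold over WT in *spt3Δ*, the highest ratio of the 36 genes (log2 0.98, the 95.7 percentile of all genes), and 1.19-fold in *spt8Δ* (log2 0.26). *RPC37* had 571 in *spt3Δ*, 544 in *spt8Δ* and 421 in WT, with ratios of 0.44 in *spt3Δ* and 0.37 in *spt8Δ*. The heterodimer's genes were both above WT, but in *spt3Δ* by unequal amounts.

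*RPC82*, *RPC34* and *RPC31* encode a trimer that binds TFIIIB and opens the promoter. *RPC31* had a signal of 1043 in *spt3Δ*, 875 in *spt8Δ* and 610.0 in WT, or 1.71-fold over WT in *spt3Δ* (log2 0.77) and 1.43-fold in *spt8Δ* (log2 0.52). *RPC82* had 669 in *spt3Δ*, 589 in *spt8Δ* and 454 in WT, with log2 ratios of 0.56 in *spt3Δ* and 0.38 in *spt8Δ*, and *RPC34* had 637 in *spt3Δ*, 527 in *spt8Δ* and 445 in WT, with 0.52 in *spt3Δ* and 0.24 in *spt8Δ*. The genes of the trimer had the same order of arrays, *spt3Δ* highest and WT lowest. Those of the stalk had that order too, *RPC25* at 834 in *spt3Δ*, 618 in *spt8Δ* and 545 in WT and *RPC17* at 566 in *spt3Δ*, 475 in *spt8Δ* and 452 in WT, with ratios in *spt3Δ* of 0.61 and 0.32, and in *spt8Δ* of 0.18 and 0.071. So did *RPC11*, needed for RNA cleavage and reinitiation, at 1758 in *spt3Δ*, 1484 in *spt8Δ* and 1406 in WT, with ratios of 0.32 in *spt3Δ* and 0.078 in *spt8Δ*.

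Of the catalytic subunits of Pol III, *RET1*, the second-largest, had a signal of 1678 in *spt3Δ*, 1634 in *spt8Δ* and 1273 in WT, with log2 ratios of 0.40 in *spt3Δ* and 0.36 in *spt8Δ*. *RPO31*, the largest, had 1219 in *spt3Δ*, 1493 in *spt8Δ* and 1295 in WT, with ratios of -0.087 in *spt3Δ* and 0.21 in *spt8Δ*. *RPO31* was the one subunit found only in Pol III whose signal in *spt3Δ* was below that in WT.

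The genes of TFIIIC had a lower median ratio than the Pol III subunits in both mutants, a difference that was not tested. Their median log2 ratio in *spt3Δ* over WT was 0.21 as deposited but took the opposite sign under intensity-dependent scaling (-0.12), under quantile scaling (-0.074) and with each array centred on its median (-0.023). In *spt8Δ* it was -0.082, and between -0.20 and -0.069 over the alternatives run. In *spt3Δ*, 4 of the 6 were above WT, beside 61.2% of all genes, and in *spt8Δ* 2 of 6, beside 58.9%. *TFC4*, whose product makes the contact of TFIIIC with TFIIIB, had 359 in *spt3Δ*, 339 in *spt8Δ* and 390.2 in WT, with ratios of -0.12 in *spt3Δ* and -0.20 in *spt8Δ*, and *TFC6* had 178 in *spt3Δ*, 165 in *spt8Δ* and 183 in WT, with ratios of -0.038 in *spt3Δ* and -0.15 in *spt8Δ*. These were the TFIIIC genes below WT in both mutants. *TFC3*, which encodes the largest subunit and binds the inner promoter box, had 367 in *spt3Δ*, 297 in *spt8Δ* and 319.8 in WT, and *TFC7* had 247 in *spt3Δ*, 203 in *spt8Δ* and 211 in WT. In *spt3Δ* their ratios were 0.20 and 0.23, and in *spt8Δ* -0.11 and -0.057. *TFC1*, which binds the outer box, had the highest TFIIIC ratio in *spt3Δ*, with 492 in *spt3Δ*, 394 in *spt8Δ* and 349 in WT (log2 ratios 0.50 in *spt3Δ* and 0.17 in *spt8Δ*), and *TFC8* had 288 in *spt3Δ*, 255 in *spt8Δ* and 229 in WT (log2 ratios 0.33 in *spt3Δ* and 0.16 in *spt8Δ*). The positive ratios of *TFC3*, *TFC7* and *TFC8* in *spt3Δ* turned negative under other scalings, their lowest values being -0.13, -0.11 and -0.0095, whereas that of *TFC1* stayed positive under each alternative.

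The listed TFIIIB genes, *BRF1* and *BDP1*, had higher ratios over WT in *spt3Δ* than in *spt8Δ*. *BRF1*, which encodes a relative of TFIIB, had a signal of 499 in *spt3Δ*, 388 in *spt8Δ* and 328 in WT, with log2 ratios of 0.61 in *spt3Δ* and 0.25 in *spt8Δ*. *BDP1*, which completes the factor, had 340.1 in *spt3Δ*, 215 in *spt8Δ* and 199 in WT, with ratios of 0.77 in *spt3Δ* and 0.11 in *spt8Δ*, the value in *spt8Δ* reaching -0.012 under another scaling. *SPT15*, the TBP gene, which is the remaining subunit of TFIIIB and outside the list, had 3721 in *spt3Δ*, 3338 in *spt8Δ* and 2439.9 in WT, with ratios of 0.61 in *spt3Δ* and 0.45 in *spt8Δ*. All these genes had their highest signal in *spt3Δ* and their lowest in WT. *MAF1*, whose product shuts Pol III down when nutrients fail, had 484 in *spt3Δ*, 512 in *spt8Δ* and 501 in WT, with ratios of -0.049 in *spt3Δ* and 0.032 in *spt8Δ*, close to WT in both mutants as deposited. Under intensity-dependent scaling, which takes away the ratio of genes of like signal, its ratio was -0.32 in *spt3Δ* and -0.077 in *spt8Δ*. *PZF1*, which encodes TFIIIA, the factor that starts assembly on the Pol III ribosomal RNA gene, had 331 in *spt3Δ*, 219 in *spt8Δ* and 202 in WT, with ratios of 0.71 in *spt3Δ* and 0.12 in *spt8Δ*.

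**Figure D3:**
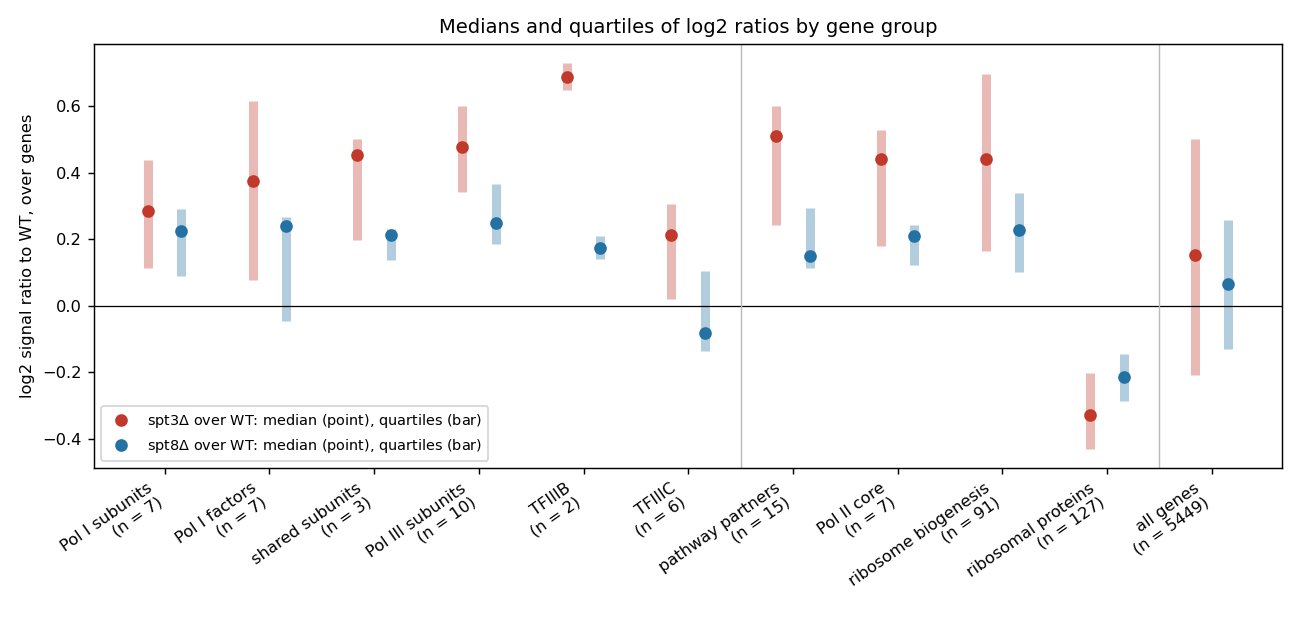
Median log2 ratio over WT of each role group (points) with its quartiles over genes (bars), for *spt3Δ* and *spt8Δ*, beside the related gene lists and all genes. Pol III subunits lie at 0.48 in *spt3Δ* and 0.25 in *spt8Δ*, TFIIIC at 0.21 in *spt3Δ* and -0.082 in *spt8Δ*, the positive TFIIIC value turning negative under intensity-dependent, quantile and median scaling.

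The Pol I and Pol III genes were then set against each other. The median of the 14 genes of Pol I alone was 0.31 in *spt3Δ* and 0.23 in *spt8Δ* over WT, and that of the 19 genes of Pol III alone 0.40 in *spt3Δ* and 0.17 in *spt8Δ*. Pol I minus Pol III was -0.093 in *spt3Δ*, which became 0.0090 under quantile scaling and 0.025 under intensity-dependent scaling, and 0.059 in *spt8Δ*. Each of these differences is small beside the range of the genes within either set. For subunits only, the difference was -0.19 in *spt3Δ* and -0.025 in *spt8Δ*, and after the ratio of genes of like signal was taken from each gene this difference was -0.019 in *spt3Δ* and 0.060 in *spt8Δ*. The gap between subunits of Pol III and TFIIIC was wider, at 0.27 in *spt3Δ* and 0.33 in *spt8Δ*, and 0.39 in *spt3Δ* and 0.33 in *spt8Δ* after that correction.

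Pol I and Pol III are built on one plan, which allows genes of related proteins to be compared in 8 pairs. These are subunits at matching places of the enzymes and, as 1 pair, the initiation factors *RRN7* and *BRF1*. With the signals as deposited, the Pol III gene had the higher ratio in 6 of the 8 pairs in *spt3Δ* over WT. In *spt8Δ* over WT it did so in 5 of 8. Relative to genes of like signal, some pairs changed order. *RPA49* was then at 0.20 and *RPC37* at 0.16 in *spt3Δ*, and *RPA34* at 0.20 and *RPC53* at 0.14 in *spt8Δ*. In *spt3Δ*, *RPA34* and *RPC53* were then nearly equal, at 0.64 and 0.65. The differences below are as deposited. The widest gap in *spt3Δ* was between the TFIIB relatives, *RRN7* minus *BRF1* being -0.78, and in *spt8Δ* that pair differed by -0.46. The second-largest subunits followed, *RPA135* minus *RET1* being -0.66 in *spt3Δ* and -0.38 in *spt8Δ*. For the largest subunits the Pol I gene was the higher, *RPA190* minus *RPO31* being 0.24 in *spt3Δ* and 0.085 in *spt8Δ*. In the heterodimers, *RPA34* minus *RPC53* was -0.37 in *spt3Δ* and -0.032 in *spt8Δ*, and *RPA49* minus *RPC37* was -0.15 in *spt3Δ* and -0.18 in *spt8Δ*. In the stalks, *RPA43* minus *RPC25* was -0.063 in *spt3Δ* and -0.19 in *spt8Δ*, and *RPA14* minus *RPC17*, nearly nil in *spt3Δ*, was 0.49 in *spt8Δ*. The cleavage subunits differed by -0.25 in *spt3Δ* and 0.21 in *spt8Δ* (*RPA12* minus *RPC11*).

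**Figure D4:**
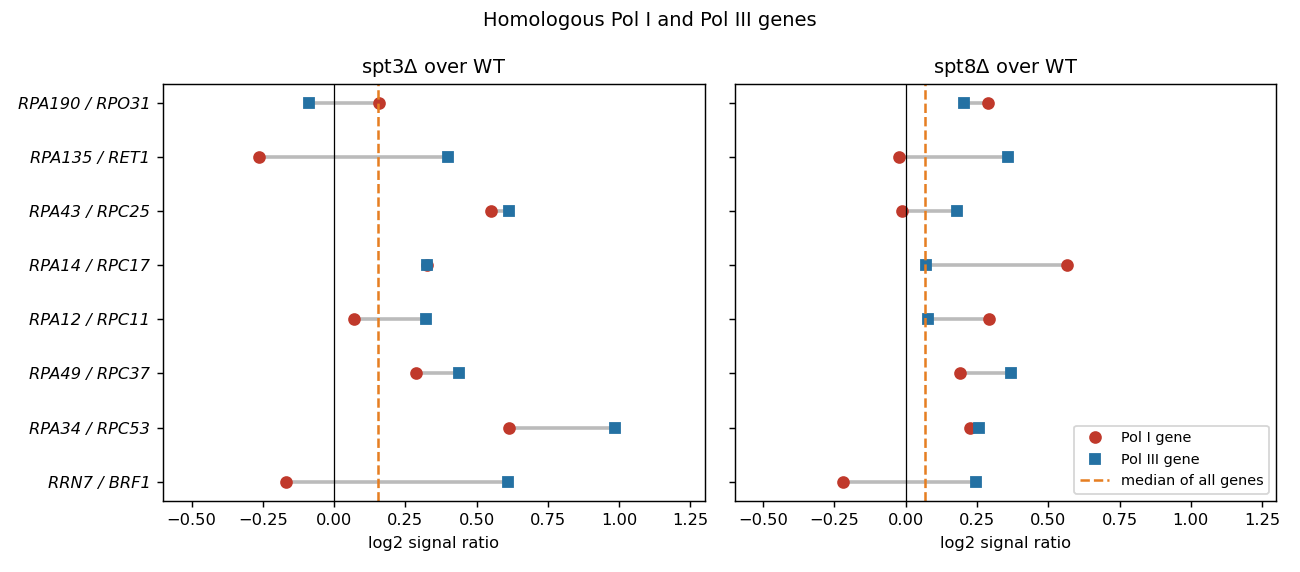
Log2 ratio over WT of the Pol I gene and the related Pol III gene in 8 pairs of subunits or initiation factors, joined by a line, in *spt3Δ* and *spt8Δ*. With the signals as deposited, as drawn, the Pol III gene is higher in 6 pairs in *spt3Δ* and in 5 in *spt8Δ*. Relative to genes of like signal, *RPA49* with *RPC37* in *spt3Δ* and *RPA34* with *RPC53* in *spt8Δ* change order. The widest gap is that of the TFIIB relatives, which are initiation factors, in *spt3Δ* (-0.78, Pol I minus Pol III) and that of *RPA14* with *RPC17* in *spt8Δ* (0.49).

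The ratios over WT varied with signal across the whole array, which bears on every gene named above. When all genes were split into deciles of mean signal, their median log2 ratio in *spt3Δ* over WT was 0.36 in the third decile and -0.27 in the brightest, and in *spt8Δ* over WT 0.12 in the fourth and -0.13 in the brightest. With the ratio of genes of like signal, read from a smooth curve of ratio against signal, taken away, 25 of the 36 (69.4%) lay above 0 in *spt3Δ*, where 49.4% of all genes did, and 26 (72.2%) in *spt8Δ*, where 49.7% did. The median of what remained was 0.21 in *spt3Δ* and 0.12 in *spt8Δ*. The share of large remainders was close to that of all genes on the upper side: 9 of 36 were more than 0.32 above genes of like signal in *spt3Δ*, beside 22.8% of all genes, and 3 in *spt8Δ*, beside 12.6%. More than 0.32 below them were 4 in *spt3Δ*, beside 24.4% of all genes, and 2 in *spt8Δ*, beside 13.7%.

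The order of the genes changed in part with this correction. In *spt3Δ*, *RPC53* had a remainder of 0.65 and *RPA34* one of 0.64, followed by *RRN11* at 0.58, *RPC31* at 0.56 and *RPC19* at 0.55. The lowest were *RRN7* at -0.50 and *TFC4* at -0.44. In *spt8Δ* the highest were *RPA14* at 0.51, *RPC31* at 0.42 and *RPA190* at 0.33, and the lowest *RRN10* at -0.58, *RRN7* at -0.33 and *TFC4* at -0.32. For TFIIIC the median remainder was -0.12 in *spt3Δ* and -0.20 in *spt8Δ*. In *spt3Δ*, 5 of its 6 genes lay below genes of like signal and 1 above, where 49.4% of all genes lay above.

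**Figure D5:**
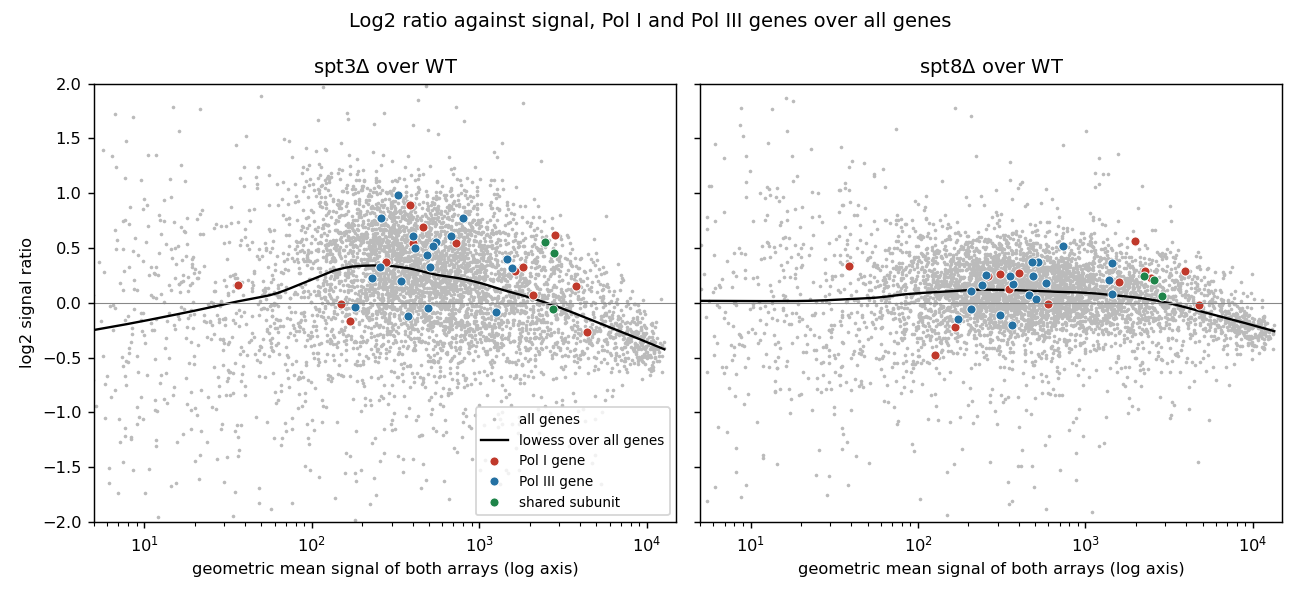
Log2 ratio over WT against the mean signal of the arrays compared (log axis) for all genes (grey) and the 36 genes (red for Pol I, blue for Pol III, green for shared subunits), in *spt3Δ* and *spt8Δ*, with the ratio of genes of like signal as a line and 143 genes in *spt3Δ* and 92 in *spt8Δ* outside the axes. The line falls to the bright end, and 25 of the 36 genes lie above it in *spt3Δ* and 26 in *spt8Δ*.

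The deletion strains were also compared directly, as *spt3Δ* over *spt8Δ*, which uses no WT array. By the limits of 2 SD, 0 of the 36 were called lower and 0 higher, beside 2.62% and 0.844% of all genes, and by 2-fold 0 and 0, beside 2.62% and 1.01%. The signal was above that of *spt8Δ* in 28 of 36, beside 58.9% of all genes, and the median log2 ratio was 0.24, beside 0.086 over all genes. By the log2 limit of 0.32, 11 of 36 were higher and 0 lower in *spt3Δ* than in *spt8Δ*, where 24.8% and 11.1% of all genes were, and relative to the median of all genes 8 were higher and 3 lower, beside 17.1% and 16.1%. *RPC53* had the highest ratio at 0.73, followed by *BDP1* at 0.66, *RRN11* at 0.63 and *RPA43* at 0.56. *RPO31* had the lowest at -0.29, with *RPA135* at -0.24 and *RPA14* at -0.24. The Pol I subunits were split in this comparison, 3 of 7 above 0 and 4 below, with a median of -0.13. Of the Pol III subunits 9 of 10 lay above 0, with a median of 0.25. Both medians kept their signs under each scaling. The Pol I factors had a median of 0.41. With genes of like signal taken away, the difference between the subunits of Pol I and Pol III was -0.17, against -0.38 before, and 22 of the 36 lay above genes of like signal, beside 49.2% of all genes. By more than 0.32, 6 lay above them and 1 below, beside 14.0% and 16.1% of all genes.

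Genes that act with Pol I and Pol III, kept on a list of 15 outside the 36, had a median log2 ratio of 0.51 in *spt3Δ* and 0.15 in *spt8Δ* over WT, and 9 (60.0%) in *spt3Δ* and 2 (13.3%) in *spt8Δ* were above WT by more than 0.32, beside 37.6% and 19.0% of all genes. *SUB1*, a coactivator at Pol II and Pol III genes, had 832 in *spt3Δ*, 594 in *spt8Δ* and 465 in WT (log2 ratios 0.84 in *spt3Δ* and 0.35 in *spt8Δ*). *TOP1*, the topoisomerase that relieves supercoiling at the ribosomal DNA, had 399 in *spt3Δ*, 286 in *spt8Δ* and 243 in WT (log2 ratios 0.72 in *spt3Δ* and 0.24 in *spt8Δ*). Both had their highest signal in *spt3Δ* and their lowest in WT. Of the subunits common to all nuclear polymerases, *RPB5* had 2475 in *spt3Δ*, 1903 in *spt8Δ* and 1723 in WT (log2 ratios 0.52 in *spt3Δ* and 0.14 in *spt8Δ*), and *RPB8* had 5687 in *spt3Δ*, 6229.9 in *spt8Δ* and 6324 in WT (log2 ratios -0.15 in *spt3Δ* and -0.022 in *spt8Δ*). Subunits found in Pol II, 7 genes, had a median of 0.44 in *spt3Δ* and one of 0.21 in *spt8Δ*, close to those of the Pol III subunits. *SCH9*, the kinase that acts on Maf1, had 785 in *spt3Δ*, 923 in *spt8Δ* and 792 in WT (log2 ratios -0.013 in *spt3Δ* and 0.22 in *spt8Δ*).

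The ribosomal RNA that Pol I and Pol III make is assembled with proteins from other gene sets, and these differed in direction. The 91 ribosome biogenesis factors had a median of 0.44 in *spt3Δ* and one of 0.23 in *spt8Δ* over WT, and 58 (63.7%) in *spt3Δ* and 26 (28.6%) in *spt8Δ* were above WT by more than 0.32, beside 37.6% and 19.0% of all genes. *NOP16*, a factor of large subunit assembly, had 1454 in *spt3Δ*, 969 in *spt8Δ* and 616 in WT. The 127 cytosolic ribosomal protein genes lay below WT, in *spt3Δ* at a median of -0.33 and in *spt8Δ* at -0.21. With the ratio of genes of like signal taken away, these medians came to lie near 0 (0.0086 in *spt3Δ* and -0.016 in *spt8Δ*). The ribosomal protein genes are among the brightest (median signal 9078, beside 466 over all genes) and so help to set the curve there. That correction therefore cannot tell a change in them from an effect of signal. In the 25 stress genes, medians were -1.07 in *spt3Δ* and -0.54 in *spt8Δ*, with 11 of 25 in *spt3Δ* and 7 of 25 in *spt8Δ* called lower, beside 2.73% and 2.13% of all genes, *DDR2* having 47.4 in *spt3Δ*, 236 in *spt8Δ* and 662 in WT. The 36 genes of the Pol I and Pol III machinery, at 0.35 in *spt3Δ* and 0.20 in *spt8Δ*, lay on the side of the biogenesis factors, though none of these lists was tested against another.

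The 36 genes lay on 12 of the 16 chromosomes of the R64 annotation, outside the 8 outermost measured genes of each chromosome end. *RPC82*, the nearest by this count, was in place 10. Distances to the chromosome ends were not analysed here. Of the 70 protein-coding genes next to them 65 were measured, with a median log2 ratio of 0.19 in *spt3Δ* and 0.10 in *spt8Δ* over WT, between the medians of the 36 and of all genes. Of the 70, 4 (5.71%) were on the ribosome biogenesis list, beside 1.51% of all protein-coding genes. They were *LTV1* beside *RPC25*, *SDA1* beside *BRF1*, *DBP2* beside *RPC19* and *NOC2* beside *RET1*. *RPA43* and *RPA190* are neighbours that face away from each other, so that the region between their starts serves both, and their ratios were 0.55 and 0.16 in *spt3Δ*, and -0.013 and 0.29 in *spt8Δ*. The genes on either side of this shared region therefore did not have the same order of arrays. Gene length bore little relation to the ratio: over the 36 genes, which share the same arrays, Spearman's rho was -0.22 in *spt3Δ* and -0.13 in *spt8Δ*, beside 0.026 in *spt3Δ* and -0.024 in *spt8Δ* over all genes.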

How the data were processed

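Amplified RNA made from total RNA of the *spt3Δ*, *spt8Δ* and WT strains was hybridised to 1-colour Affymetrix arrays, 1 per strain. The deposited values are linear intensities (signals) per probe set, which the authors made with MAS5 in Affymetrix Expression Console, scaled to a common trimmed mean (MAS5 is version 5 of Microarray Suite, and the version of Expression Console is not given in the sources used here). Every column was mapped to a sample. Of 10928 probe sets, 7245 had 1 gene name, 1 had several and 3683 were unnamed. The 5498 named for *S. cerevisiae* gave 5449 genes after log2 values of probe sets of 1 gene were averaged (47 genes), and 12 symbols were updated through R64. The 1746 probe sets for *Schizosaccharomyces pombe* gave the background of each array, their 95th percentile (6.67 in *spt3Δ*, 8.61 in *spt8Δ* and 7.17 in WT).

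Ratios were differences of log2 signals, with no pseudocount or filter. Genes past 2 SD from the mean of all genes were called. The study also used limits of 2 SD, but its cut-offs differ from those computed here. Genes of like signal were a lowess fit (span 0.3) of the ratio on the mean log2 signal. All 36 genes could be named, and those past a limit, at the ends of the range or in a related pair were given on every array. The 36 genes and all lists were chosen with earlier results of these data known. Alternatives were quantile, intensity-dependent and median scaling, 50 added to signals, genes above background, unshared probe sets, the brightest probe set and other limits. The number of arrays limits the precision. Promoter and protein sequences were not analysed here. The steps were tested on simulated data. Python 3.11.15, numpy 2.4.6, pandas 2.3.3, scipy 1.17.1, statsmodels 0.14.6 and matplotlib 3.10.9 were used.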

Additional observations from a re-analysis of the deposited data

Results flagged for a closer look

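In 6 of the 36 genes the signal lay on one side of WT in *spt3Δ* and on the other in *spt8Δ*. How many of all genes did so was not counted, so the count of 6 cannot be set against the genome. With 1 array per strain the difference between the mutants was not tested, and each value below is a log2 ratio. *RPA43* was at 0.55 in *spt3Δ* and -0.013 in *spt8Δ*, or 0.56 in *spt3Δ* over *spt8Δ*. *RPO31* was at -0.087 in *spt3Δ* and 0.21 in *spt8Δ*, with a direct ratio of -0.29. *TFC3* was at 0.20 in *spt3Δ* and -0.11 in *spt8Δ*, with a direct ratio of 0.31, and *TFC7* at 0.23 in *spt3Δ* and -0.057 in *spt8Δ*, with 0.29. The smallest differences were those of *RPC40*, at -0.057 in *spt3Δ* and 0.063 in *spt8Δ*, with -0.12, and *MAF1*, at -0.049 in *spt3Δ* and 0.032 in *spt8Δ*, with -0.080. Under at least 1 other scaling, *TFC3* (lowest -0.13) and *TFC7* (lowest -0.11) lay below WT in *spt3Δ*, and *RPC40* (lowest -0.035) and *MAF1* (lowest -0.077) lay below WT in *spt8Δ*, so that these 4 genes were then on the same side of WT in both mutants. *RPA43* and *RPO31* kept their sides under the alternatives run.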

How the results depend on the processing

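No paired analysis was possible because each strain had 1 array, and for the same reason no replicate could be left out. Scaling moved the median of all genes in *spt3Δ* over WT between -0.083 and 0.15, and relative to it the median of the 36 genes stayed between 0.19 and 0.22 (0.12 to 0.13 in *spt8Δ* over WT, 0.089 to 0.17 in *spt3Δ* over *spt8Δ*). With each array centred on its median, the median of the 36 genes was 0.12 in *spt3Δ* over WT and 0.10 in *spt3Δ* over *spt8Δ*, where quantile scaling gave 0.11 and intensity-dependent scaling 0.083. Pol I minus Pol III in *spt3Δ* over WT changed sign under quantile (0.0090) and intensity-dependent scaling (0.025). A log2 limit of 0.32 called 22 genes higher in *spt3Δ* over WT, 6 higher and 1 lower in *spt8Δ* over WT, and 11 higher in *spt3Δ* over *spt8Δ*, where the limit of 2 SD, 2-fold and 2 robust SD called 0. The same limit taken from the median ratio of all genes, an alternative chosen after seeing the data, called 14 higher and 1 lower in *spt3Δ* over WT, 2 higher and 1 lower in *spt8Δ* over WT, and 8 higher and 3 lower in *spt3Δ* over *spt8Δ*. Relative to all genes, 22 of the 36 lay above under every scaling in *spt3Δ* over WT, 8 below and 6 on both sides, and 24, 8 and 4 in *spt8Δ* over WT. A further array per strain was not analysed here, so the spread between cultures is unknown.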
